A study of Homo sapiens with 6 samples.

Results

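NEAT1 and MALAT1 are neighbouring genes of abundant nuclear long noncoding RNAs on the forward strand of human chromosome 11. RNA pol II at the genes was followed through the regions that carry either gene symbol in the deposited peak lists, together with every region that touches chr11:65420000-65510000. This rule gave 98 of the 271336 regions in the 4 lists, all on chromosome 11. There were 25 regions of 46045 for RPB1 in SHP-1 WT cells, 33 of 41605 for RPB1 in SHP-1 KO cells, 20 of 102674 for phospho-Ser2 RPB1 in SHP-1 WT cells and 20 of 81012 for phospho-Ser2 RPB1 in SHP-1 KO cells.

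The cells were HepG2, an established line from a human liver tumor, left untreated. The KO cells carried a CRISPR knockout of SHP-1, the tyrosine phosphatase encoded by PTPN6, and the WT cells did not. The paper does not say whether the WT cells used for ChIP-seq were untransfected or carried the nontargeting guide. It describes clonal lines with and without the deletion. Which knockout clone was used for ChIP-seq is not given in the sources used here. A difference between clones and an effect of the deletion therefore cannot be told apart. RPB1, the largest subunit of RNA pol II, and RPB1 phosphorylated on Ser2 of its tail, a form found on elongating RNA pol II, were each precipitated in 1 library per cell line, with 1 input DNA library per cell line as the background. No value below therefore has a replicate, a standard deviation or a test, and a difference between cell lines is a difference between 1 library and 1 other library.

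Both RNAs stay in the nucleus. NEAT1 is made as a short isoform that ends at a poly(A) site and a long isoform that reads on through the gene, and the long isoform is the scaffold on which paraspeckle proteins assemble. MALAT1 gathers in nuclear speckles, which hold splicing factors. The 3′ end of the long NEAT1 isoform and of MALAT1 is not polyadenylated but cut by RNase P in front of a tRNA-like small RNA, and an A-rich tract at the end folds back into a triple helix that protects the RNA. In MALAT1 the small RNA that is released is called mascRNA.

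In hg38, GENCODE release 44 places NEAT1 at chr11:65422774-65445540 (22767 bp) and MALAT1 at chr11:65497640-65508073 (10434 bp), with 52.1 kb between them. The short NEAT1 isoform ends at 65426457, and the small RNA cut from the long isoform starts at 65445541. MascRNA occupies chr11:65506117-65506173, so the processed MALAT1 RNA ends at 65506116. TALAM1, a transcript antisense to MALAT1, is annotated at chr11:65499312-65507432 on the reverse strand. The lists hold no strand, so RNA pol II on MALAT1 and on TALAM1 cannot be told apart.

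RefSeq (GRCh38.p14) gives MALAT1 a first start at 65497738 and a second start at 65499045, 1307 bp downstream. Of 66 MALAT1 transcripts in GENCODE, 4 begin within 50 bp of the first start and 33 within 50 bp of the second. The sequences around these starts, around the RPB1 summits and at the processed end are shown because the strongest summit over MALAT1 lay at the second start and not at the first in 3 of the 4 lists. All are read 5′ to 3′ on the forward strand. In the 30 bases at the first start (chr11:65497728-65497757) and at the second (chr11:65499035-65499064), the capital marks the first transcribed base. In the 30 bases before the second start (chr11:65499005-65499034), the capitals mark a TATA box. In the bases around the summit (chr11:65499060-65499089), the capitals mark the adjacent summit positions of the WT and SHP-1 KO RPB1 lists. In the last 30 bases before mascRNA (chr11:65506087-65506116, read from hg38), the capitals mark the longest run of A.
MALAT1 start 1: ctctcccctcCgcagcctgcagcccgagac
MALAT1 start 2: gctgtgcggtAggcattgaggcagccagcg
MALAT1 start 2 upstream: gttctccgtcTATAAAtacgcctcgcccga
MALAT1 RPB1 summit: cagcgcaggggcttCTgctgagggggcagg
MALAT1 processed end: ttttctagcttAAAAAAAAAAAAAgcaaaa

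The starts differ in composition. The RefSeq window from 250 bases before to 50 bases after the first start was 73.7% G and C with 37 CpG dinucleotides, and the window of the second start was 46.0% G and C with 14 CpG dinucleotides. The median of 35116 such windows was 58.7% and 14. TATAAA was searched on both strands and was found in the second window, 30 bases before the start on the transcribed strand, and not in the first. It occurred on the transcribed strand in 7.33% of all windows and on either strand in 11.5%. The GC box GGGCGG was found 2 times on the transcribed and 3 times on the other strand of the first window and not in the second, and 45.0% of all windows held it. CCAAT was found in neither window, against 34.6% of all windows.

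Each deposited region has a start, an end, a summit and a fold enrichment, which is the signal at the summit divided by the background expected from the input of the same cells. It is a height per position, so it can be compared between genes of different length. The lists hold no read counts, and the depth of the libraries is unknown. Of 9 hepatocyte and HepG2 markers, 8 had a region annotated as promoter in each of the 4 lists, with APOA1 missing from the list of phospho-Ser2 RPB1 in SHP-1 WT and from both RPB1 lists and FGB missing from the remaining one. Of 6 markers of other cell types, PECAM1 alone had one in each list. At PTPN6, the targeted gene, the strongest RPB1 region had a fold enrichment of 24.0 in SHP-1 WT and 17.2 in SHP-1 KO cells, which does not check the knockout because RNA pol II can still occupy a gene with a small deletion.

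RNA pol II occupied both genes along almost their whole length in both cell lines. Over NEAT1, RPB1 regions covered 93.9% of the gene in SHP-1 WT and 84.3% in SHP-1 KO cells, and phospho-Ser2 RPB1 regions covered 100% and 98.2%. Over MALAT1, RPB1 regions covered 100% in SHP-1 WT and 99.2% in SHP-1 KO cells, and phospho-Ser2 RPB1 regions 99.5% and 97.1%. Among all genes with a region, the median share covered was 5.71% and 5.01% for RPB1 in WT and SHP-1 KO cells. For phospho-Ser2 RPB1 it was 13.5% and 11.7%. NEAT1 was covered at least as much as 92.6% and 91.9% of these genes for RPB1, and 100% and 92.5% for phospho-Ser2 RPB1. For MALAT1 the shares were 100% and 94.3%, and 92.7% and 92.3%. Such coverage was rarer among longer genes, a cut added after seeing the data. Among genes of at least 5 kb with a region, the median share covered was 3.41% and 3.01% for RPB1 and 7.81% and 6.61% for phospho-Ser2 RPB1, in WT and SHP-1 KO cells. The part of these genes covered at least as much as NEAT1 was 0.678% and 0.991% for RPB1 and 0.288% and 0.540% for phospho-Ser2 RPB1. For MALAT1 it was 0.291% and 0.241% for RPB1 and 0.297% and 0.705% for phospho-Ser2 RPB1.

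**Figure D1:**
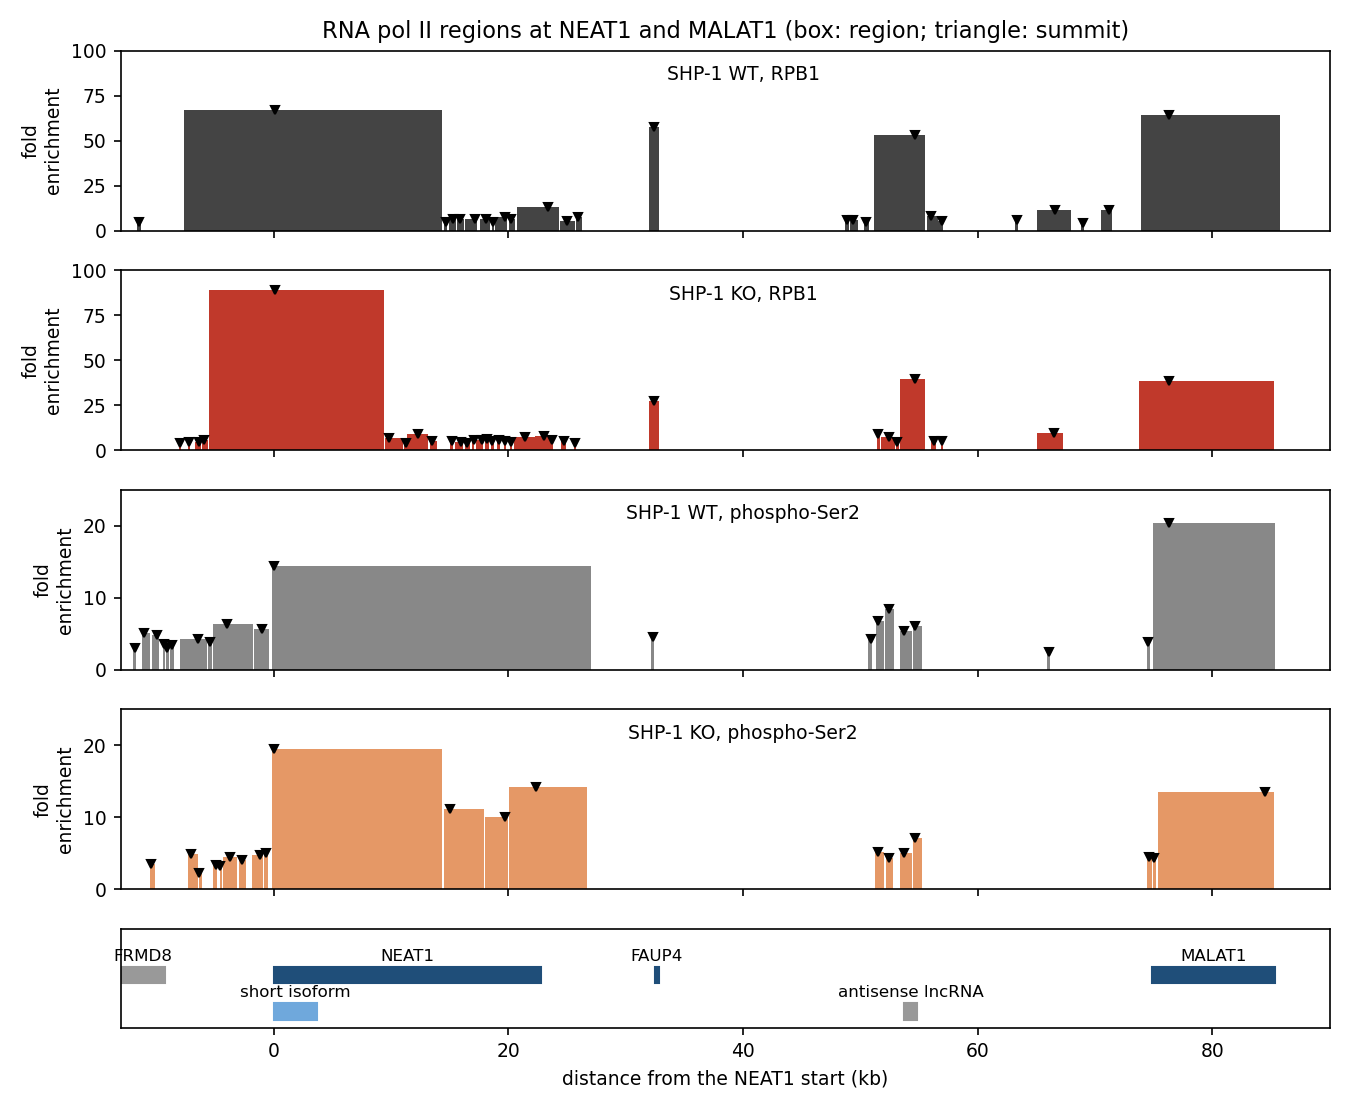
Regions at NEAT1 and MALAT1 in the 4 lists, by distance from the NEAT1 start in kb. Each box spans a region, its height is the fold enrichment at the summit (triangle) and not along the region, and the RPB1 and phospho-Ser2 panels have different axes; the tallest RPB1 box over NEAT1 reaches 66.9 in SHP-1 WT and 89.2 in SHP-1 KO, and the tallest over MALAT1 64.0 and 38.5.

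The strongest RPB1 region at NEAT1 lay over its start. In SHP-1 WT cells it ran from 65415152 to 65437089, annotated as promoter, with a fold enrichment of 66.9 (−log10 q-value 470) and rank 535 of the list, inside the top 1.16%. In SHP-1 KO cells it ran from 65417274 to 65432191 with a fold enrichment of 89.2 (−log10 q-value 422) and rank 31, inside the top 0.0745%. Ranked by −log10 q-value in place of fold enrichment, the SHP-1 WT and SHP-1 KO regions lay inside the top 0.0934% and 0.0769%. The summits were 131 bp and 98 bp past the annotated start. The peak over the NEAT1 start was thus taller in the SHP-1 KO list while the region around it was shorter, 14918 bp against 21938 bp. By length these regions ranked 3 in the SHP-1 WT and 11 in the SHP-1 KO list.

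Phospho-Ser2 RPB1 at NEAT1 had its strongest summit at the start as well. The SHP-1 WT list held 1 region for the whole gene, from 65422629 to 65449804 (27176 bp), with a fold enrichment of 14.4, rank 666 and the summit 60 bp past the start. In the SHP-1 KO list the gene was divided among 4 regions. The strongest ran from 65422637 to 65437149 with a fold enrichment of 19.4, rank 181 and the summit 55 bp past the start. Both antibodies therefore gave a taller summit at the NEAT1 start in the SHP-1 KO than in the SHP-1 WT library.

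Past the end of the short isoform lies the 19.1 kb that the long isoform includes and the short one does not. The lists do not show which isoform RNA pol II on this stretch was making. In SHP-1 WT cells, RPB1 regions covered 92.7% of this stretch, with 8 summits that reached at most 7.46 and had a median of 6.29. In SHP-1 KO cells they covered 81.3%, with 15 summits that reached at most 9.03 and had a median of 5.28. The region over the start itself reaches into this stretch in both lists, to 65437089 and 65432191, and has its 1 summit at the start, so these summits come from the separate regions further on and give no height for the part inside it. Phospho-Ser2 RPB1 covered 100% of the stretch in SHP-1 WT and 97.9% in SHP-1 KO cells. Its 3 SHP-1 KO summits there had fold enrichments of 11.2, 10.0 and 14.3, all above the RPB1 summits on the same stretch, although fold enrichments of different antibodies are not on 1 scale. The last of them, rank 588 in its list, lay 427 bp before the end of NEAT1 in a region that ran 3935 bp past it.

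Divided into 10 equal parts from start to end, NEAT1 shows where RPB1 regions gave way. Parts 1 to 4 lay wholly inside RPB1 regions in both cell lines. Coverage was lowest in part 7 in SHP-1 WT cells (79.6%) and in parts 9 and 7 in SHP-1 KO cells (47.9% and 48.0%), and it was 92.7% and 96.8% in part 10. Phospho-Ser2 RPB1 coverage did not go below 93.4% in any part of NEAT1 in either cell line. Bases of the gene inside an RPB1 region lay inside a phospho-Ser2 region of the same cells without exception, 21375 of 21375 in SHP-1 WT and 19193 of 19193 in SHP-1 KO cells.

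**Figure D2:**
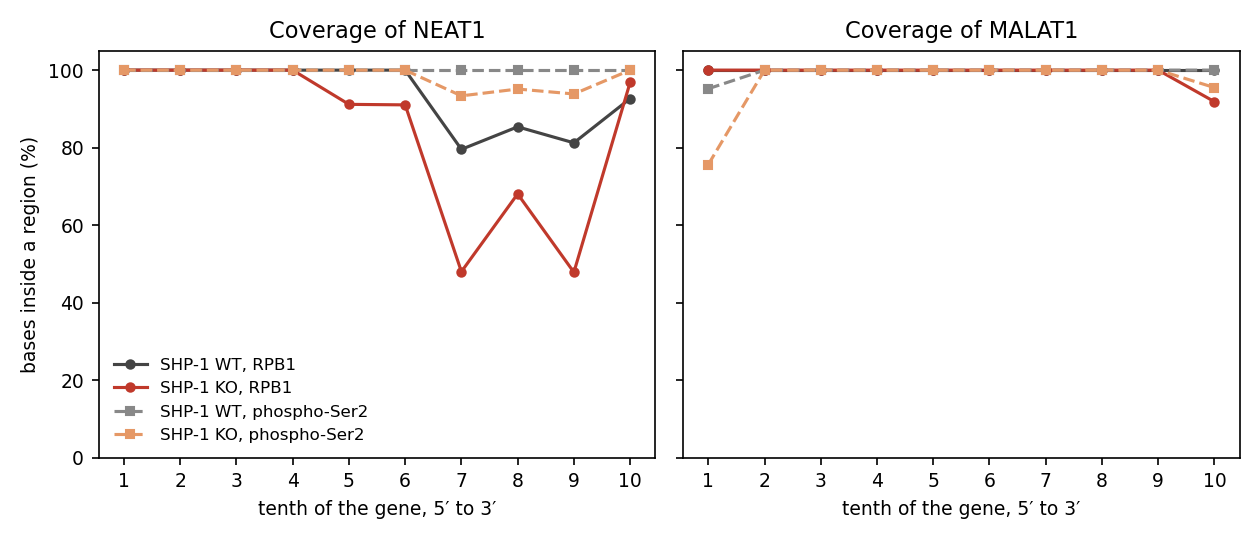
Share of bases inside a region, in percent, in each of 10 equal parts of NEAT1 and MALAT1 from the 5′ to the 3′ end, with 1 line per list. RPB1 coverage of NEAT1 is lowest in parts 7 and 9, down to 47.9% in SHP-1 KO, while MALAT1 is below 100% only in parts 1 and 10.

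RNA pol II regions also lay past both processed ends and upstream of both genes. In the first 5 kb after NEAT1, RPB1 regions covered 67.1% in SHP-1 WT and 33.1% in SHP-1 KO cells, and phospho-Ser2 RPB1 regions 85.3% and 78.7%. The tallest RPB1 summit there had a fold enrichment of 13.0 in SHP-1 WT, 627 bp past the gene, and 7.92 in SHP-1 KO, 288 bp past it. In the 5 kb from the processed end of MALAT1, RPB1 covered 49.1% and 37.4% and phospho-Ser2 RPB1 39.8% and 38.2%, all of it in regions continuous with the gene. In the 9.2 kb between FRMD8, the next gene upstream, and the NEAT1 start, RPB1 covered 82.4% and 75.6% and phospho-Ser2 RPB1 87.1% and 53.7%. In the last 5 kb before MALAT1, RPB1 covered 37.5% and 22.3% and phospho-Ser2 RPB1 4.16% and 7.46%. The covered share was thus larger in the SHP-1 WT list in each of these 4 flanks for RPB1, and for phospho-Ser2 RPB1 in all but the last, where it was larger in the SHP-1 KO list. The SHP-1 WT lists covered more of the whole genome too, 37.8 Mb against 31.8 Mb for RPB1 and 67.6 Mb against 54.6 Mb for phospho-Ser2 RPB1, and its part in these flanks was not tested.

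Over MALAT1, 1 RPB1 region spanned all or nearly all of the gene in each cell line. In SHP-1 WT cells it ran from 65496712 to 65508571 with a fold enrichment of 64.0 (−log10 q-value 337) and rank 635, inside the top 1.38%. In SHP-1 KO cells it ran from 65496523 to 65507988 with a fold enrichment of 38.5 (−log10 q-value 260) and rank 1490, inside the top 3.58%. The summits were at 65499074 and 65499075, 29 bp and 30 bp past the second RefSeq start, in the sequence printed above, and 1336 bp and 1337 bp past the first. At MALAT1 the SHP-1 WT library thus had the taller RPB1 summit, at the same place and with a region of nearly the same length, 11860 bp against 11466 bp.

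Phospho-Ser2 RPB1 at MALAT1 differed in the place of its summit. In SHP-1 WT cells, 1 region from 65497690 to 65508106 had a fold enrichment of 20.4 and rank 184, with the summit 48 bp past the second start. In SHP-1 KO cells, a short region from 65497690 to 65497940 had a fold enrichment of 4.39, with its summit 75 bp past the first start. A long region from 65498145 to 65508026 had a fold enrichment of 13.5 and rank 687, with its summit at 65507229, 1113 bp past the processed end. A deposited region gives 1 summit, so the height at the second start inside this long SHP-1 KO region is not known.

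The 52.1 kb between the genes held a pair of strong RPB1 sites. The first spans FAUP4 (chr11:65455269-65455581), a processed pseudogene of the ribosomal protein gene FAU. It also spans the start of a lncRNA that GENCODE annotates at chr11:65455257-65466720. It ran from 65454773 to 65455624 in SHP-1 WT cells with a fold enrichment of 57.7 and rank 1011. In SHP-1 KO cells it ran from 65454716 to 65455615 with 27.5 and rank 3484. Its summits, at 65455152 and 65455161, lay before both annotated starts. The second, annotated as distal intergenic, ran from 65473899 to 65478244 in SHP-1 WT cells with 53.0 and rank 1416, and from 65476135 to 65478251 in SHP-1 KO cells with 39.5 and rank 1387. Both lists placed its summit at 65477438, inside an antisense lncRNA that GENCODE annotates at chr11:65476515-65477572. At the first site the phospho-Ser2 RPB1 signal was low in SHP-1 WT cells, with 1 region of 266 bp that reached 4.58. This region, from 65454908 to 65455173, ended before FAUP4. No phospho-Ser2 RPB1 region at the first site passed the authors' peak calling in SHP-1 KO cells. Around the second site, phospho-Ser2 RPB1 was split into short regions with fold enrichments up to 8.44 in SHP-1 WT and 7.05 in SHP-1 KO cells. In the 42.1 kb that lie more than 5 kb from either gene, RPB1 covered 26.6% and 17.9% and phospho-Ser2 RPB1 covered 9.61% and 7.44%, in WT and SHP-1 KO cells.

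**Figure D3:**
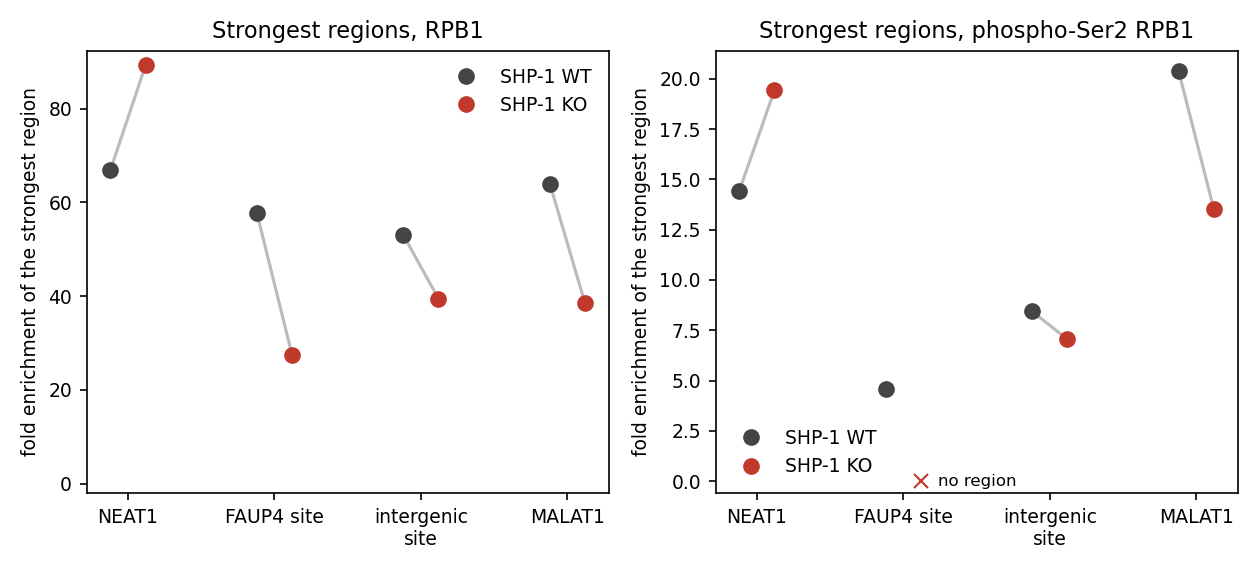
Fold enrichment of the strongest region at NEAT1, at the FAUP4 site, at the intergenic site and at MALAT1, with 1 point per library for RPB1 (left) and phospho-Ser2 RPB1 (right). NEAT1 alone is higher in SHP-1 KO than in SHP-1 WT with both antibodies, and the cross marks a place without a region.

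At this locus the gene symbols that the authors gave the regions do not follow the gene limits. Of the 98 regions, 30 carried the symbol NEAT1, 30 MALAT1, 34 MIR612, a microRNA annotated inside the 3′ part of NEAT1, and 4 MASCRNA. The 4 regions labelled MASCRNA are the long regions over MALAT1 itself. The RPB1 regions labelled MALAT1 all lie between the genes, and the strongest of them is the intergenic site with 53.0 in SHP-1 WT and 39.5 in SHP-1 KO cells. Regions over the 3′ part of NEAT1 are mostly labelled MIR612, and the strongest RPB1 region with that label is the FAUP4 site. Values by symbol are therefore given below beside values by overlap with the gene limits, called values by position.

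The fold enrichments were next compared between the cell lines for all genes. For RPB1 the strongest region was lower in SHP-1 KO than in SHP-1 WT cells at the median gene, with a KO to WT ratio of 0.742 over 12877 symbols and 0.730 over 17406 genes by position. For phospho-Ser2 RPB1 the median ratio was 0.936 over 10870 symbols and 0.939 over 13688 genes by position. Ratios are given below on the log2 scale after subtracting this median, and a gene was called when it lay past 1.5-fold in either direction. By symbol, 20.9% of genes were called for RPB1 (11.3% higher and 9.64% lower in SHP-1 KO) and 16.8% for phospho-Ser2 RPB1 (8.44% and 8.35%). By position, 19.2% were called for RPB1 (10.1% higher and 9.13% lower) and 19.7% for phospho-Ser2 RPB1 (9.65% and 10.1%). Of the genes with regions of both antibodies, 2.06% were called higher with both and 1.32% lower with both.

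NEAT1 lay toward the upper end and MALAT1 on the lower side with both antibodies. For RPB1 at NEAT1, 66.9 in SHP-1 WT and 89.2 in SHP-1 KO cells gave a centred log2 ratio of 0.85 by symbol and 0.87 by position, which was past 1.5-fold, and 3.73% of genes by position had a higher one. For phospho-Ser2 RPB1 at NEAT1, 14.4 and 19.4 gave 0.52 both by symbol and by position, short of 1.5-fold, and 12.0% of genes by position had a higher one. For RPB1 at MALAT1, 64.0 and 38.5 gave −0.28 by position, within 1.5-fold of the median gene, with 74.5% of genes having a higher one. For phospho-Ser2 RPB1 at MALAT1, 20.4 and 13.5 gave −0.50 by position, again short of 1.5-fold, with 87.0% of genes having a higher one. These summits lay at different places, the second start in SHP-1 WT and past the processed end in SHP-1 KO cells. The value therefore compares no single site. The symbol MALAT1 gave 0.01 for RPB1 and −0.16 for phospho-Ser2 RPB1, both from intergenic regions. Its phospho-Ser2 RPB1 value sets different sites against each other, 8.44 at the region from 65474858 in SHP-1 WT and 7.05 at that from 65477289 in SHP-1 KO cells. For the symbol MIR612 too the strongest phospho-Ser2 RPB1 regions lay at different places. They were the FAUP4 site in SHP-1 WT (4.58) and the 3′ part of NEAT1 in SHP-1 KO cells (14.3). The MIR612 value of 1.73 therefore compares no single site. Of the 4 values at the genes by position, the RPB1 value of NEAT1 was the 1 called, on a background of 10.1% called higher, and neither gene was called with both antibodies. The call for NEAT1 rests on the summit at its start. With the mean fold enrichment of its regions weighted by their length in place of the strongest, the centred log2 ratio was 0.54 by symbol and 0.53 by position, short of 1.5-fold. This mean gives each region its summit value over its full length. It therefore still holds the start summit, depends on region length, and gives no height for the gene away from its start.

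**Figure D4:**
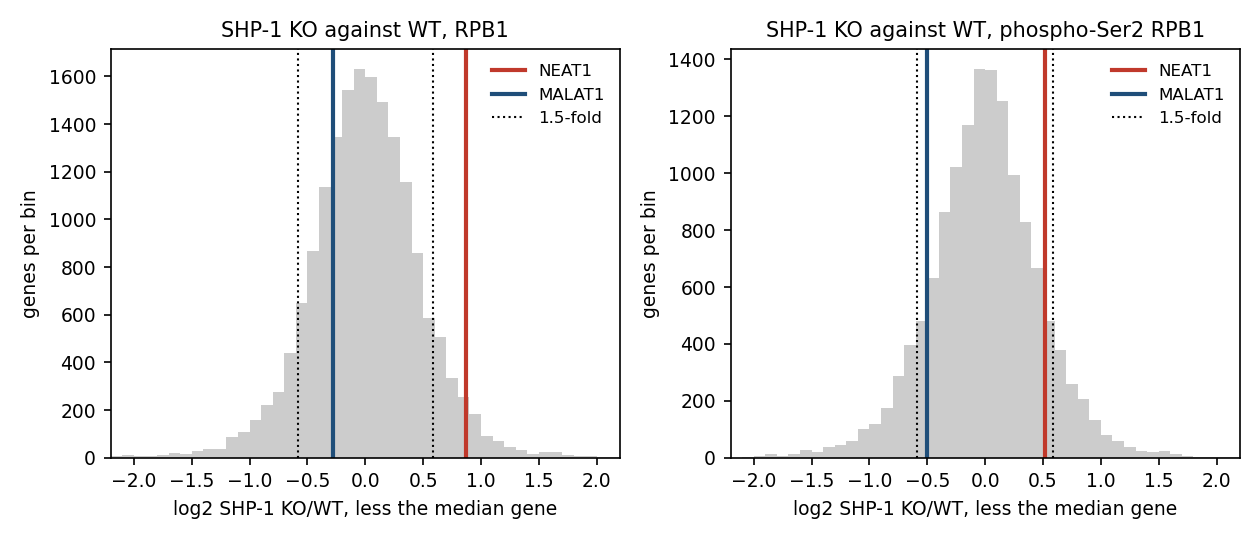
Distribution over genes, by position, of the log2 ratio of SHP-1 KO to SHP-1 WT strongest fold enrichment less the median gene, for RPB1 (left) and phospho-Ser2 RPB1 (right), in bins of 0.1; dotted lines mark 1.5-fold. NEAT1 lies at 0.87 and 0.52 and MALAT1 at −0.28 and −0.50, the last from summits at different places.

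NEAT1 and MALAT1 were also placed among genes with tall regions alone. Among 10814 genes with a mean RPB1 fold enrichment of at least 20, NEAT1 had a centred log2 ratio of 0.87, with 1.88% of them higher, and MALAT1 had −0.27, with 76.9% higher. In this group 6.82% of genes were past 1.5-fold upward and 6.35% downward. Among 2590 genes with a mean phospho-Ser2 RPB1 fold enrichment of at least 10, NEAT1 had 0.52, with 15.5% higher, and MALAT1 had −0.50, with 85.8% higher. Here 13.3% were past 1.5-fold upward and 10.2% downward.

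The ratio of NEAT1 to MALAT1 inside a list needs no scaling between libraries. For RPB1 it was 1.04 in SHP-1 WT and 2.32 in SHP-1 KO cells. For phospho-Ser2 RPB1 it was 0.708 and 1.44. The order of the neighbours was thus reversed for phospho-Ser2 RPB1, with MALAT1 the taller in SHP-1 WT and NEAT1 in SHP-1 KO cells, where the MALAT1 summit lay past the processed end. For RPB1 the genes were within 1.04-fold of each other in SHP-1 WT and apart in SHP-1 KO cells. The NEAT1 to MALAT1 ratio was 2.22-fold larger in the SHP-1 KO than in the SHP-1 WT list for RPB1 and 2.03-fold larger for phospho-Ser2 RPB1. On the log2 scale these are 1.15 and 1.02. Centred log2 ratios of single genes by position ran from −0.77 to 0.78 between the 5th and 95th percentiles for RPB1. For phospho-Ser2 RPB1 they ran from −0.78 to 0.77. How often a pair of genes differs this much was not computed. With 1 library per group, the spread of this ratio among repeat libraries is unknown.

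Region by region, 17 of the 25 RPB1 regions of SHP-1 WT cells (68.0%, 95% Wilson confidence interval 48.4 to 82.8) overlapped a SHP-1 KO region by at least 1 bp, against 61.9% of all regions of that list. In the other direction it was 32 of 33 (97.0%, 84.7 to 99.5), against 74.9% of all. For phospho-Ser2 RPB1, 11 of 20 SHP-1 WT regions (55.0%, 34.2 to 74.2) were overlapped, against 52.2% of all, and 20 of 20 SHP-1 KO regions (100%, 83.9 to 100), against 69.9%. With a reciprocal overlap of 50% required, the RPB1 shares at the locus lay below those of the whole lists, 28.0% against 40.1% in SHP-1 WT and 21.2% against 44.3% in SHP-1 KO cells. The phospho-Ser2 RPB1 shares were 40% in both directions, against 25.95% and 32.9%. The intervals cover counting error only, and neighbouring regions of 1 gene are not independent. The RPB1 regions of SHP-1 WT cells without a counterpart lay mainly between the genes, and the strongest of them, from 65493246 to 65494193, reached a fold enrichment of 11.4. The others reached at most 6.02.

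For each SHP-1 WT region with a counterpart, its fold enrichment was set against the strongest SHP-1 KO region that overlapped it and centred on the median of all such pairs. For RPB1, 30.0% of 28495 pairs were past 1.5-fold, 16.8% upward and 13.2% downward. Of the 17 pairs at the locus, 1 was past it upward, the NEAT1 start with a centred log2 ratio of 0.63. The 2 past it downward were the FAUP4 site (−0.86) and a region after NEAT1 that starts at 65448536, whose fold enrichments were 7.51 and 3.70 (−0.81). The SHP-1 KO summit of this second pair, at 65448488, lies outside the SHP-1 WT region, so the pair compares no single site. The intergenic site (−0.21) and MALAT1 (−0.52) stayed within 1.5-fold. For phospho-Ser2 RPB1, 21.8% of 53584 pairs were past 1.5-fold, 11.6% upward and 10.1% downward. Of the 11 pairs at the locus 0 were past it upward and 2 downward, an intergenic region with 8.44 and 4.39 (−0.97) and the MALAT1 region (−0.62). The MALAT1 pair sets summits at different places in the gene against each other. The NEAT1 region had 0.40.

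Among 77 genes by symbol within 1 Mb with RPB1 regions in both lists, the median centred log2 ratio was −0.09, from −1.66 to 2.65. Of these, 9 (11.7%) were past 1.5-fold upward, against 11.3% of all symbols, and 14 (18.2%) downward, against 9.64%. Among 57 with phospho-Ser2 RPB1 regions the median was 0.02, from −0.97 to 0.92, with 4 (7.02%) upward, against 8.44%, and 6 (10.5%) downward, against 8.35%. FRMD8, upstream of NEAT1, had RPB1 fold enrichments of 33.7 and 24.3 (centred log2 ratio −0.04).

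The genes most like each member over the 4 lists were found by the distance between their log2 strongest fold enrichments, among 11933 genes with a region in every list. Nearest to NEAT1 were SNHG5, a host gene of small nucleolar RNAs, and ENSG00000271793, which overlaps it and takes its values from the same regions. Both had 72.1 and 79.0 for RPB1 and 15.5 and 18.9 for phospho-Ser2 RPB1 in WT and SHP-1 KO cells, at a distance of 0.24. The lncRNA ENSG00000288704 followed at 0.38, with 74.1, 81.3, 11.6 and 19.4. Nearest to MALAT1 were the coding gene SLC2A4RG (63.0, 39.9, 18.4 and 12.7, distance 0.18), the lncRNA ENSG00000280195 (56.1, 37.4, 19.8 and 14.6, distance 0.23) and the coding gene AFMID (57.2, 37.99, 17.8 and 13.3, distance 0.26). The match covers heights only, and so a profile that differs along the gene is not seen in it.

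Genes of the proteins that assemble on these RNAs were read from the same lists. All 15 genes of paraspeckle proteins had RPB1 and phospho-Ser2 RPB1 regions by symbol in both cell lines. Their median centred log2 ratio was −0.10 for RPB1, with 1 gene past 1.5-fold upward and 1 downward, and 0.08 for phospho-Ser2 RPB1, with 3 upward and 1 downward. By position the medians were −0.04 for RPB1, with the same counts, and −0.11 for phospho-Ser2 RPB1, with 2 upward and 1 downward. Over all genes by symbol, 11.3% were upward and 9.64% downward for RPB1, and 8.44% and 8.35% for phospho-Ser2 RPB1. By position these shares were 10.1% and 9.13%, and 9.65% and 10.1%. TAF15, an RNA-binding protein, was among those with the tallest RPB1 regions in SHP-1 WT cells, and its fold enrichment was 61.1 there against 36.9 in SHP-1 KO cells (−0.30). The lowest by symbol were RBM14 with 6.01 and 5.81 (0.38) and NONO, a core paraspeckle protein, with 23.5 and 18.0 (0.04). By position RBM14 had 50.2 and 38.2 (0.06).

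The 14 genes of nuclear speckle proteins and proteins that act on MALAT1 also had regions in all 4 lists. Their median was 0.17 for RPB1, with 2 past 1.5-fold upward and 1 downward, and 0.03 for phospho-Ser2 RPB1, with 0 upward and 1 downward. By position the phospho-Ser2 counts were 1 upward and 3 downward. The shares over all genes are those given for the paraspeckle list. The splicing factors TRA2B, with 76.2 and 61.8 for RPB1 (0.13), and SRSF2, with 63.9 and 55.9 (0.24), were the tallest. SON, a scaffold of nuclear speckles, and RNPS1, a splicing factor, were the lowest by symbol with 3.74 and 5.02 (0.86) and 5.51 and 5.28 (0.37). By position they had 22.7 and 22.9 (0.47) and 47.7 and 34.3 (−0.02). The median SHP-1 WT fold enrichment of the strongest RPB1 region per gene, by symbol, was 39.0 for the paraspeckle and 42.9 for the speckle list. Over all genes by symbol it was 23.01.

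Of 16 other long noncoding RNA genes, 11 had RPB1 regions by symbol in both cell lines. Their median centred log2 ratio was 0.54, with 4 past 1.5-fold upward and 2 downward, but by position it was 0.11, with 3 upward and 1 downward. Over all genes, 11.3% were upward and 9.64% downward by symbol, and 10.1% and 9.13% by position. KCNQ1OT1, an imprinted antisense RNA, was the tallest with 107 and 61.4 (−0.37 by symbol). TUG1 was next with 69.2 in SHP-1 WT cells. By symbol its SHP-1 KO value was 7.28, but its promoter region there carried the symbol of a neighbour, and by position it had 58.7 (0.21). HULC and MEG3 were lowest by symbol with 6.77 and 7.28 (0.54) and 4.50 and 9.23 (1.47), and by position they had 60.8 and 40.7 (−0.12) and 19.5 and 14.7 (0.05). For phospho-Ser2 RPB1, 9 of the 16 genes had regions in both cell lines with a median of 0.23 by symbol and 0.18 by position. By symbol 3 were past 1.5-fold upward and 0 downward, against 8.44% and 8.35% of all genes. By position it was 2 and 0, against 9.65% and 10.1%. By position, NEAT1 (66.9) and MALAT1 (64.0) came after KCNQ1OT1, DANCR (76.8) and TUG1 and before HULC in RPB1 height in SHP-1 WT cells, with the other genes of these 11 lower still. DANCR was named here after its values were seen.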

How the data were processed

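Chromatin of HepG2 cells was precipitated for RPB1 and for phospho-Ser2 RPB1, giving 4 libraries, 1 per antibody and genotype. The 2 input libraries enter only as the background and were not analysed here on their own. Per the methods of the study, the authors used Trimmomatic, BWA (to hg38) and MACS2, run for every library with the matching input as control. Tool versions are not given in the sources used here. The deposited unit is a ratio, the fold enrichment over input at each summit. Beside it stand −log10 values for a p-value and a q-value, and the annotation and symbol that the authors added. Another deposited table holds the authors' own csaw comparison of RPB1 between genotypes (windows up and down, p-values, FDR) and was not used. The lists hold no read counts, so depth is unknown and limits the precision to an unknown extent.

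Positions are 1-based on hg38. Genes came from GENCODE release 44 and starts and promoter windows from RefSeq (GRCh38.p14), whose MALAT1 sequences were identical to hg38. Regions were given to a gene by overlap of at least 1 bp and, for the comparison of cell lines, also by the authors' symbol. The KO to WT ratio of the strongest fold enrichment per gene was centred on the median gene and called past 1.5-fold, with no test, since each group has 1 library. Shares have 95% Wilson intervals, which cover counting error only. The functions were tested on simulated data. Named genes were NEAT1, MALAT1, the other symbols in the window, PTPN6, the 3 genes nearest to each member over the 4 lists, and the 2 highest and 2 lowest of each gene list by RPB1 in SHP-1 WT cells, where lists are otherwise given by counts. FRMD8 is the flanking gene upstream. Some genes that the rule names are not reported here. The members and lists were chosen with earlier results of these data known. Comparisons with strong genes, with genes of at least 5 kb and region by region were added after seeing the data. The ratio of NEAT1 to MALAT1 inside a list was not planned either. Python 3.11.15, pandas 2.3.3, NumPy 2.4.6, SciPy 1.17.1 and Matplotlib 3.10.9 were used.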

Additional observations from a re-analysis of the deposited data

How the results depend on the processing

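With 1 library per group, no value has a spread to set an alternative against, and every comparison is of single libraries of clonal cells. Depth is unknown, so a region without a counterpart in the other list was not detected at that depth and is not shown to be absent. No paired analysis was possible because each group holds 1 library.

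Of the values recomputed under the alternatives, 54 stayed within 1.5 times for counts, within their intervals for shares, or within 1.5-fold and on the same side of the call for ratios, and 50 moved. No interval for covered shares or ranks measures a spread among libraries. Small changes in them therefore count as moved too, such as 93.9% to 91.8% for RPB1 over NEAT1 in SHP-1 WT cells. The count of 50 is thus no measure of stability. By the authors' symbol in place of overlap with the gene, regions numbered 2, 7, 11 and 10 for NEAT1 and 10, 7, 7 and 6 for MALAT1 (here and below in the order RPB1 in SHP-1 WT, RPB1 in SHP-1 KO, phospho-Ser2 RPB1 in SHP-1 WT and phospho-Ser2 RPB1 in SHP-1 KO). With regions under a −log10 q-value of 5 left out, RPB1 covered 91.8% and 80.8% of NEAT1. With 3 kb added on each side, the covered share was 94.7%, 82.9%, 99.04% and 95.3% for NEAT1 and 72.2%, 69.8%, 64.7% and 63.9% for MALAT1. Ranked by −log10 q-value, the strongest region lay inside the top 0.0934%, 0.0769%, 0.131% and 0.174% for NEAT1. For MALAT1 it lay inside the top 0.688%, 0.603%, 0.0896% and 0.235%. The gap in RPB1 rank between the cell lines at NEAT1, 1.16% against 0.0745% by fold enrichment, was thus mostly gone by q-value. Ranked among genes, it lay inside the top 3.75%, 0.230%, 4.80% and 1.55% for NEAT1 and 4.45%, 10.9%, 1.41% and 5.55% for MALAT1. Ranked among promoter regions, it was 2.56%, 0.157%, 1.59% and 0.609% for NEAT1 and 3.04%, 7.31%, 0.534% and 2.00% for MALAT1.

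The centred log2 ratio of NEAT1 for RPB1 (0.85 by symbol) was 0.54 with the length-weighted mean, 0.52 with fold enrichment times length summed and, in an alternative chosen after seeing the data, 0.53 with position and the length-weighted mean together. None of these is past 1.5-fold, and 0.85 is not past 2-fold. The weighted means and the sum give each region its summit value over its full length, so they are not heights along the gene. Summed by symbol, the value was −0.13 for NEAT1 with phospho-Ser2 RPB1, −0.66 for the symbol MALAT1 with RPB1 (past 1.5-fold) and 0.11 for the symbol MALAT1 with phospho-Ser2 RPB1. These sums follow the symbols and not the genes. In SHP-1 KO cells, 3 of the 4 phospho-Ser2 RPB1 regions over NEAT1 carry the symbol MIR612 and are left out of the sum, while the SHP-1 WT region holds the whole gene, and regions with the symbol MALAT1 are mostly intergenic. With a reciprocal overlap of 50% the shared regions were 28.0% and 21.2% of the RPB1 lists and 40% of the phospho-Ser2 RPB1 list of SHP-1 KO cells, against 40.1%, 44.3% and 32.9% over all regions of these lists.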
